A study of Homo sapiens with 36 samples.

Results

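LNCaP prostate cancer cells carrying a guide against TRIM33 were compared with LNCaP cells carrying a control guide, both after exposure to androgen. The comparison takes 6 of the 36 RNA-seq libraries of the series, chosen by their labels alone: 3 of sgT33-5 with R1881 against 3 of NT3 with R1881, over all genes of the count table. LNCaP is a line from a lymph node metastasis of prostate cancer, and R1881 is a synthetic androgen. All cells were held for 3 days in serum stripped of hormones, and R1881 was then given at 5 nM for 6 h, with DMSO alone as the vehicle in matching libraries. The labels do not expand sgT33-5 or NT3, which are read here, from the title of the series, as a guide RNA against TRIM33 and a control guide. The labels name no other allele, and do not say whether sgT33-5 is a pool or 1 clone, whether the edit is complete, or whether replicates are separate cultures. P-values of the comparison therefore measure the spread between libraries within groups, pooled over the 24 LNCaP libraries. Used beside them are sgT33-5 and NT3 in LNCaP with DMSO, sgT33-5 and NT3 in 42D with R1881 (42D being an LNCaP derivative that resists enzalutamide), and, for the sorting of genes by hormone response, NT3 in 42D with R1881 or DMSO. Also used are sgT33-5_MC_C2 and sgT33-5_MC_F2 in LNCaP, which carry the same guide name; MC is not expanded in the labels. Their libraries with R1881 and DMSO, 3 each, enter the LNCaP fit.

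TRIM33 belongs to the TIF1 family of chromatin readers with TRIM24 and TRIM28, carries E3 ubiquitin ligase activity, and is best known as a partner and regulator of SMAD4 in TGF-beta and BMP signalling. The androgen receptor enters the nucleus after binding hormone and activates genes such as KLK3 and TMPRSS2 together with the pioneer factor FOXA1 and the homeodomain factor HOXB13. Ubiquitination of histone H2B, named in the title of the series, is laid down by the RNF20 and RNF40 ligase and accompanies transcription.

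The 6 libraries held 15470801 to 16126576 counts each. Replicate 1 of sgT33-5 stood apart: mitochondrial genes took 2.4% of its counts, and its chi-square per gene against the other sgT33-5 libraries was 26.6 and 20.8, against 6.30 between those 2 and 3.59 to 7.18 among NT3 libraries. The mitochondrial share of the 3 NT3 libraries was 5.18% to 6.01%. The part of this library in the results was not tested beyond leaving it out, and counts without it are given below. Luminal prostate markers were high in both groups, with summed levels of 8197 to 8563 CPM in sgT33-5 libraries, against 10570 to 11560 CPM in NT3 libraries. CPM are counts scaled to a fixed library total, with edgeR's TMM factors for single genes. Of 16 leukocyte markers none passed the expression filter, 8 (CD3D, CD3E, CD8A, MS4A1, NKG7, ITGAM and FCGR3A among them) were at 0 in all 6 libraries, and their sums were 0.435 to 0.840 CPM in sgT33-5 libraries, against 0.249 to 0.710 CPM in NT3 libraries.

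With androgen present, 472 of the 15519 genes tested differed between the 2 guides at an adjusted p under 0.05, which is 3.04% of them. The falls outnumbered the rises, with 320 genes lower and 152 higher in sgT33-5. Most changes were modest: the median log2 fold change was 0.40 among the higher genes and -0.36 among the lower ones, against -0.01 over all genes tested, and 60 genes (20 higher, 40 lower) changed at least 2-fold. The libraries of the 2 groups did not overlap for 470 of the 472 genes, the exceptions being PRAME and SYNJ1, named for that reason after their values were seen. Among all genes tested, 18.7% showed no overlap. Without replicate 1 of sgT33-5, 147 genes were lower and 51 higher. The total was 275 without replicate 2 of sgT33-5, 201 without replicate 1 of NT3, 223 without replicate 2 of NT3, and 194 in a fit of the 6 libraries alone. With the replicate number as a block, 1264 genes (8.14%) were called, 812 lower (5.23%) and 452 higher (2.91%). All 472 genes kept their sign whichever of the 6 libraries was left out, and 136 of them (30 higher, 106 lower) passed the threshold each time.

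The targeted gene itself was clearly reduced. TRIM33 (ENSG00000197323, chromosome 1, 114392790 to 114511203 on GRCh38) had 52.5, 60.5 and 66.0 CPM in sgT33-5 libraries, against 127.8, 121.4 and 127.9 CPM in NT3 libraries. Its log2 fold change was -1.07 ± 0.077 (SE, adjusted p = 9.95e-10), a ratio of 0.475. A guide RNA acts on the gene and not on the transcript, and a transcript level does not measure TRIM33 protein. Between 113892790 and 115011203 on chromosome 1, TRIM33 was the 1 called gene of 10 tested; its neighbour NRAS, named for its position, stood at -0.05.

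Of the TIF1 relatives, TRIM24, itself a coactivator of the androgen receptor, fell in sgT33-5. It had 84.0, 89.9 and 96.6 CPM in sgT33-5 libraries, against 112.0, 124.0 and 107.5 CPM in NT3 libraries, a log2 fold change of -0.35 ± 0.065 (adjusted p = 0.00221). The groups did not overlap, and the call held in every leave-out. TRIM28 did not pass the threshold, at 0.16 ± 0.059 (adjusted p = 0.146, and 0.0131 in the blocked fit). SMAD4 stood at -0.14 ± 0.046 (adjusted p = 0.0872, and 0.0355 in the blocked fit). TRIM33 and TRIM24 were the 2 called members among 14 tested genes of the TIF1 family and its SMAD partners. That is 14.3% lower, beside 2.06% of all genes, a share that counts TRIM33, the gene the guide was made against. TRIM24 was the 1 called member apart from that target.

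No enzyme of H2B ubiquitination was called at the transcript level. None of the 26 tested members of that list passed the threshold in edgeR or DESeq2, 2 reached an unadjusted p under 0.05, and 2 were called lower in the blocked fit; the median log2 fold change was -0.04. RNF20 averaged 91.1 ± 3.93 CPM in sgT33-5 and 98.3 ± 3.5 CPM in NT3 (SD, n = 3 each), and RNF40 averaged 120.8 ± 4.64 CPM in sgT33-5 and 118.4 ± 4.29 CPM in NT3. Adjusted p-values were 0.35 for RNF20, 0.852 for RNF40 and 0.846 for USP22, a subunit of the SAGA complex that removes the mark. The mark itself was not measured by RNA-seq.

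Many androgen target genes were lower in sgT33-5. Of 102 tested androgen response genes, 39 were lower in sgT33-5 and 0 were higher (63 did not pass), beside a background of 2.06% of all genes called lower. The median log2 fold change of the 102 was -0.23, and 90 of them were negative. The count was 13 without replicate 1 of sgT33-5 (median -0.21), 19 without replicate 2 of sgT33-5 or replicate 1 of NT3, and 12 without replicate 2 of NT3. With the replicate block it was 59 lower and 1 higher. KLK3, which encodes prostate-specific antigen and is the classic readout of the receptor, led the list.

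KLK3 (ENSG00000142515, chromosome 19, 50854915 to 50860764) had 1029, 1125 and 938 CPM in sgT33-5 libraries, against 2631, 2804 and 2721 CPM in NT3 libraries. Every sgT33-5 library was below every NT3 library, with a log2 fold change of -1.40 ± 0.2 (adjusted p = 0.000622). Its neighbour and close paralog KLK2 (chromosome 19, 50861568 to 50880567), also an androgen target, had 367, 505 and 668 CPM in sgT33-5 libraries, against 346, 428 and 515 CPM in NT3 libraries. The groups overlapped, at a log2 fold change of 0.26 ± 0.32 (adjusted p = 0.788, and 0.42 in the blocked fit). KLK4 stood at -0.05 ± 0.085 and KLK15 at -0.29 ± 0.165, neither past the threshold, so KLK3 was the 1 called gene of these 4 kallikreins. Reads of KLK2 and KLK3 could be shared between them, depending on counting settings that are not given in the sources used here.

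**Figure D1:**
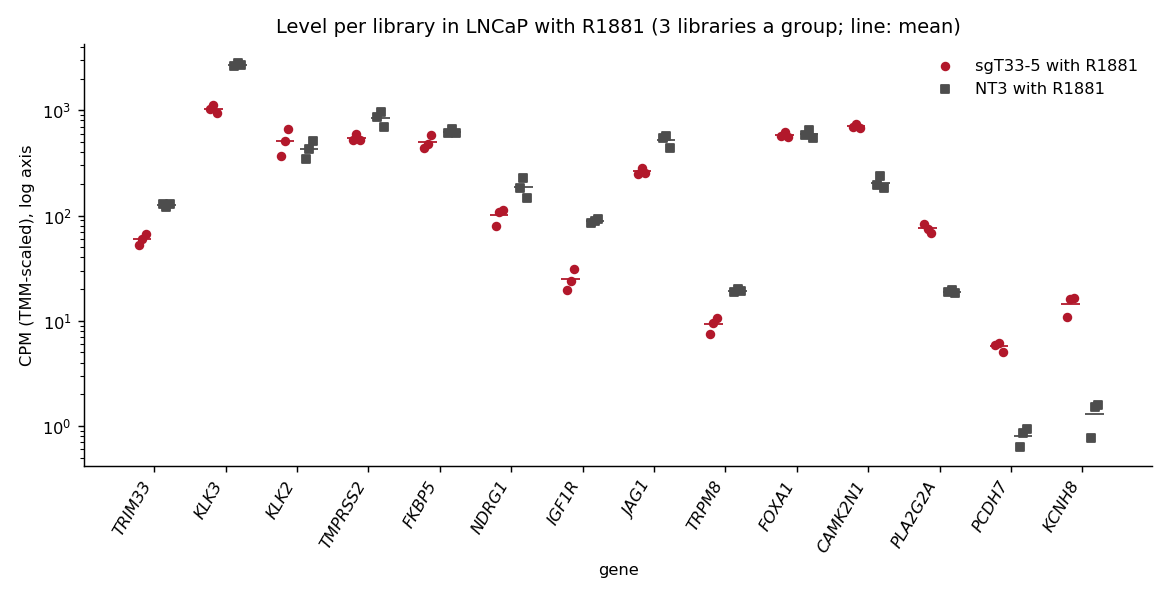
Levels of 14 genes in each library (TMM-scaled CPM, log axis), with sgT33-5 with R1881 as red circles left of NT3 with R1881 as grey squares, 3 libraries a group and a line at the mean. KLK3 sits at 938 to 1125 CPM in sgT33-5 and 2631 to 2804 CPM in NT3, while KLK2 and FOXA1 overlap between the groups.

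The promoters of KLK3 and KLK2 are shown because KLK3 was called and KLK2 was not, a difference between genes that was not itself tested, while both hold a similar match to a receptor element near the gene start. Both runs are the 250 bases before the gene start in RefSeq (GRCh38.p14, plus strand), at chr19:50854665-50854914 for KLK3 and chr19:50873189-50873438 for KLK2. RefSeq starts KLK2 downstream of the start given above. Capitals mark 15 bases: a match, found by searching both strands, to GNACA and GTNCT with 4 free letters (N) between them, and the base before it. This is a relaxed form of the androgen receptor element.
KLK3: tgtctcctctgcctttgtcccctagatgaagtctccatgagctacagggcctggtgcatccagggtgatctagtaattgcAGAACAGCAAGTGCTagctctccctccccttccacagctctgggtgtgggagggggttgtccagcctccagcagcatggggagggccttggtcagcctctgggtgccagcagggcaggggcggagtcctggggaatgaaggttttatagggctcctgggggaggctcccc
KLK2: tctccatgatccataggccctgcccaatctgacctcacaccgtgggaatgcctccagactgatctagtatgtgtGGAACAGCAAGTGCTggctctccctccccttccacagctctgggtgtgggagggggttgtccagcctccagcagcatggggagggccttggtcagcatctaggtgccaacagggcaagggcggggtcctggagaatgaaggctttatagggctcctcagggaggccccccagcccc

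The capitals end 155 bases before the gene start in KLK3 and 161 bases before it in KLK2, and 14 of their 15 letters are the same. The single difference is A1G, counted from 1 at the 5′ end of the capitals with the KLK3 base first. That letter gives KLK3 the 6 letters AGAACA, 1 arm of the element, which the KLK2 window does not hold on either strand. The stricter form, GNACA and TGTNC with 3 free letters between, is in neither window. Of 27305 RefSeq genes with a promoter, 0.729% hold the relaxed form in this window. So do 1.57% of the 255 matched genes called lower (4 genes) and 1 of the 29 matched androgen response genes called lower. KLK3, shown here with its match, is that 1 gene and is among the 4, so these shares are not separate from it. AGAACA is in 14.8% of all promoters, in 10.7% of those of genes tested and in 28 of those 255 genes. Such a match is a description of letters, and enhancers outside the window were not examined.

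Membrane and secreted products of the receptor programme fell beside KLK3. TMPRSS2, the membrane serine protease whose promoter is fused to ERG in many prostate cancers, had 521.6, 601.0 and 519.8 CPM in sgT33-5 libraries, against 869.2, 968.7 and 693.1 CPM in NT3 libraries (log2 fold change -0.62 ± 0.128, adjusted p = 0.01). SLC45A3, a prostate-specific transporter, averaged 346 ± 25.9 CPM in sgT33-5 and 516 ± 67.7 CPM in NT3 (adjusted p = 0.013). TRPM8, a cold-sensing channel of prostate epithelium, had 7.50, 9.53 and 10.7 CPM in sgT33-5 libraries, against 18.9, 19.9 and 19 CPM in NT3 libraries, a fall by 1.06 on the log2 scale (SE 0.124, adjusted p = 6.55e-06). STEAP4, a metalloreductase, stood at -0.94 ± 0.242 (adjusted p = 0.0336). TMPRSS2 overlaps MX1 on the opposite strand, so reads may be shared. TRPM8 kept its call in all leave-outs. TMPRSS2, SLC45A3 and STEAP4 lost theirs in 3, 2 and 4 of the 6, and without replicate 1 of sgT33-5 their adjusted p-values were 0.0685, 0.0903 and 0.164.

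Several intracellular targets were also lower. NDRG1, a stress-responsive gene, had 80.2, 108.7 and 112.0 CPM in sgT33-5 libraries, against 183.9, 225.4 and 146.5 CPM in NT3 libraries (log2 fold change -0.89 ± 0.183, adjusted p = 0.0119). The kinase SGK1 had 17.0, 19.99 and 30.1 CPM in sgT33-5 libraries, against 34.0, 41.1 and 39.1 CPM in NT3 libraries (-0.77 ± 0.192, adjusted p = 0.0318). FKBP5, an immunophilin of the HSP90 machinery, had 439, 481 and 581 CPM in sgT33-5 libraries, against 612, 658 and 607 CPM in NT3 libraries (-0.32 ± 0.081, adjusted p = 0.0285). In each of these genes replicate 1 of sgT33-5 was the lowest library and no library of one group reached the other group. Their calls were lost in 2 leave-outs for NDRG1, 5 for SGK1 and 4 for FKBP5, and without that replicate the adjusted p-values were 0.0802 for NDRG1, 0.182 for SGK1 and 0.196 for FKBP5.

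FOXA1 and HOXB13 did not pass the threshold. FOXA1 stood at -0.02 ± 0.078 (adjusted p = 0.928) and HOXB13 at 0.08 ± 0.07 (adjusted p = 0.635). Among 38 coregulators tested, 3 were lower, beside 2.06% of all genes: GRHL2, an epithelial transcription factor, at -0.38 ± 0.079, FKBP5 again, and ETV1, an ETS factor, at -0.18 ± 0.05. Over the leave-outs the count ran from 0 to 3, and the call was lost in 1 for GRHL2, 4 for FKBP5 and 5 for ETV1. SKP2, a cell cycle ubiquitin ligase subunit, and MYC did not pass, with log2 fold changes of 0.04 and 0.33 (adjusted p = 0.898 and 0.108); in the blocked fit MYC was called, at an adjusted p of 4.5e-06.

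Genes that androgen holds down moved both ways. Of 20 tested members of that list, 3 were higher and 2 lower, beside 0.979% of all genes called higher and 2.06% called lower. The androgen-conjugating enzyme UGT2B15 (0.80 ± 0.206), the esterase BCHE (0.81 ± 0.186) and the myelin protein PMP22 (0.89 ± 0.241) were the higher members. The opioid receptor OPRK1 (-1.16 ± 0.261) and LRRN1 (-0.39 ± 0.097) were lower. Over the 6 leave-outs the counts ran from 0 to 3 higher and 0 to 2 lower, and the blocked fit called 7 higher and 2 lower.

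**Figure D2:**
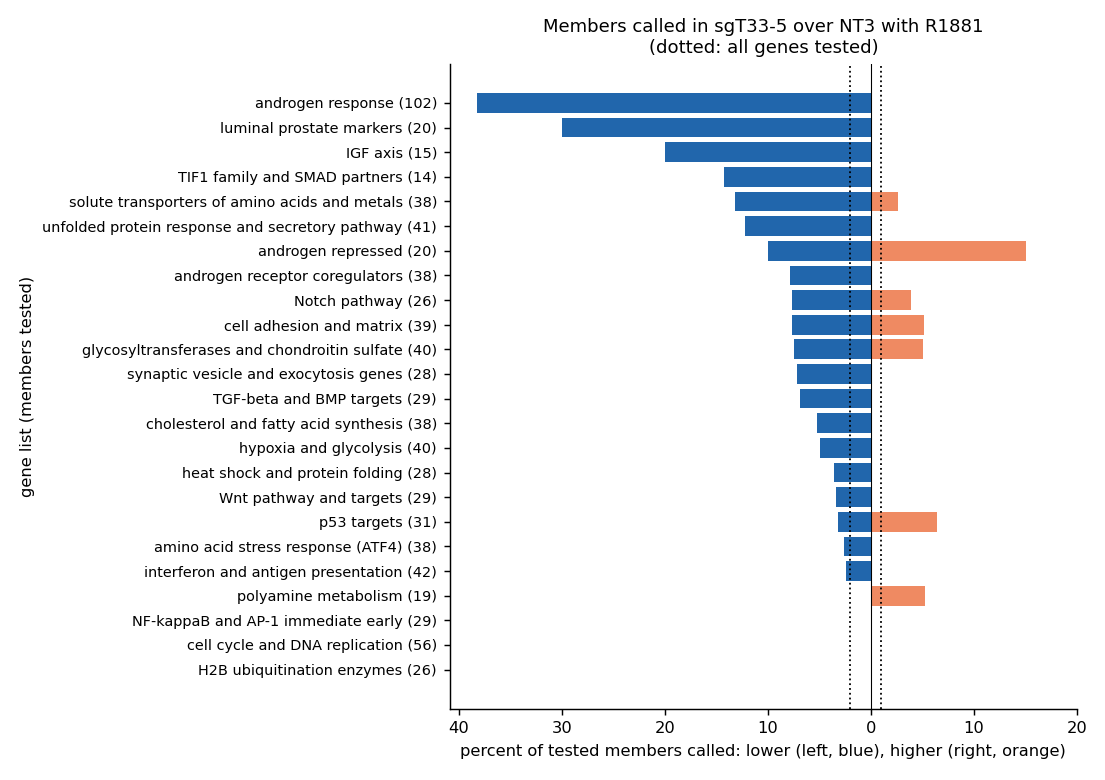
Percent of tested members called lower (blue, to the left) or higher (orange, to the right) in sgT33-5 over NT3 with R1881, for the 24 lists with at least 14 members tested (members tested in brackets), with dotted lines at the 2.06% lower and 0.979% higher of all genes. Androgen response genes reach 38.2% lower, and the H2B ubiquitination, cell cycle and NF-kappaB lists have no called member.

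The size of the fall in LNCaP can be set against the strength of the hormone response in another line. Sorting by the response of LNCaP NT3 cells would reuse the 3 NT3 libraries of the comparison, so genes were sorted by the response of NT3 cells of 42D, where R1881 called 25.3% of the genes tested. Over all genes tested in LNCaP, 2.06% were called lower and 0.979% higher. The 55 genes raised 8-fold or more in 42D had a median log2 fold change of -0.46 in LNCaP sgT33-5 over NT3, and 21 of them (38.2%) were called lower, 0 higher. The median was -0.29 for the 68 genes raised 4-fold to 8-fold (13 lower, 1 higher) and -0.23 for the 231 raised 2-fold to 4-fold (45 lower, 1 higher). It was -0.07 for 1668 genes raised less than 2-fold and 0.00221 for the 10761 genes with no called response. Genes lowered 2-fold or more in 42D had a median of 0.06, with 8 of 208 higher (3.85%) and 10 lower (4.81%), both above the shares over all genes. The groups share genes with the androgen response list, KLK3 among them (raised by 1.56 on the log2 scale in 42D NT3). Without replicate 1 of sgT33-5 the first 3 medians were -0.41, -0.21 and -0.18. The number called lower in these 3 groups together, 79 of 354, was 32 without that library, 48 without replicate 2 of sgT33-5, 42 without replicate 1 of NT3 and 37 without replicate 2 of NT3.

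**Figure D3:**
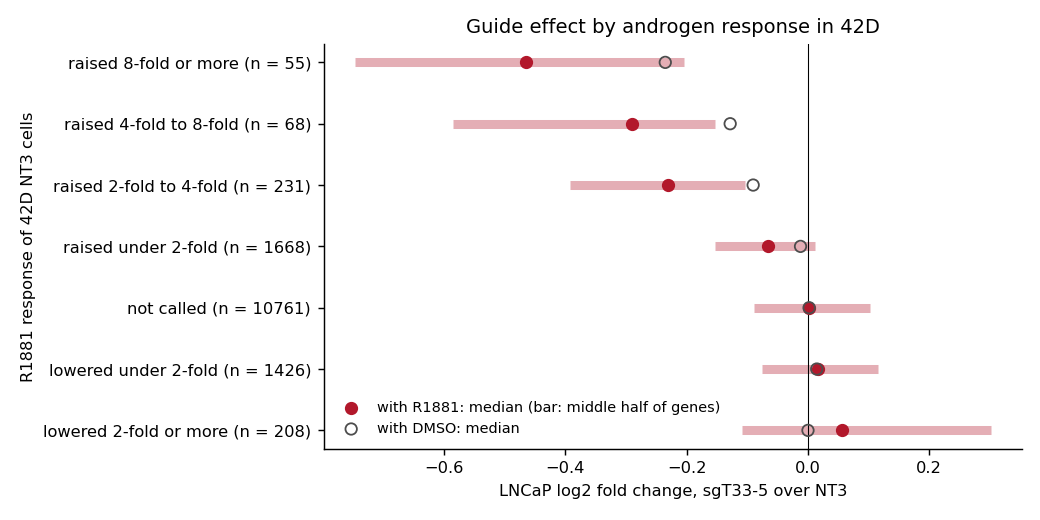
Log2 fold change of sgT33-5 over NT3 in LNCaP for genes grouped by their R1881 response in 42D NT3 cells, with filled red points for the median with R1881, pale bars from the 25th to the 75th percentile of the genes, and open points for the median with DMSO. The red medians run from -0.46 in the group raised 8-fold or more to 0.06 in the group lowered 2-fold or more; with DMSO the first group has a median of -0.24.

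Luminal prostate markers, which overlap the androgen list, had 6 of 20 tested members lower (30%, beside 2.06% of all genes) and 0 higher. Over the leave-outs 2 to 7 were lower, with 2 without replicate 1 of sgT33-5. Of the 6 lower markers, the prostatic acid phosphatase gene ACP3 was the one without a place in the androgen or coregulator lists. It had 34.1, 36.8 and 26.4 CPM in sgT33-5 libraries, against 61.7, 63.3 and 42.4 CPM in NT3 libraries (log2 fold change -0.78 ± 0.164, adjusted p = 0.0113). Its call was lost in 2 of 6 leave-outs. The summed stromal markers were 204.6 to 231.1 CPM in sgT33-5 libraries, against 294.6 to 320.9 CPM in NT3 libraries. FN1, which encodes fibronectin and is also made by LNCaP cells, carried most of that sum, with 126.9, 155.2 and 161.6 CPM in sgT33-5 libraries, against 253.8, 234.5 and 231.4 CPM in NT3 libraries, and CDH2, THY1 and ZEB2 were at 0 in all 6. The 9 tested members of that list had a median log2 fold change of 0.12 and 4 were negative. FN1 and TWIST1 were called lower, and LUM (0.75), PDGFRB (0.80) and VIM (0.29) stood the other way without passing the threshold. FN1 kept its call in every leave-out, and TWIST1 lost its call in 4 of 6. In bulk libraries, fewer cells of a type and less RNA per cell cannot be told apart.

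IGF1R, the receptor for insulin-like growth factors, showed the second-largest fall among the named genes. It had 19.5, 23.8 and 31.1 CPM in sgT33-5 libraries, against 85.6, 87.9 and 92.6 CPM in NT3 libraries. The groups lay far apart, with a log2 fold change of -1.84 ± 0.143 (adjusted p = 2.84e-08), and the call held in every leave-out. IGF1R is also raised by androgen, by 3.21 on the log2 scale in 42D NT3 cells. Of 15 tested genes of the IGF axis, 2 more were lower: IRS2, a docking protein of the receptor, at -0.52 ± 0.131 (adjusted p = 0.0244), and IGFBP3, a binding protein, at -0.46 ± 0.11 (adjusted p = 0.0186). Both lost the call in 4 of 6 leave-outs. The IGF list had 20% lower, beside 2.06% of all genes.

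The Notch, TGF-beta and BMP, and Wnt lists had few calls, with medians of -0.03, -0.01 and -0.04. Their shares called lower were 7.69%, 6.90% and 3.45%, beside 2.06% of all genes. Notch had 3.85% higher, beside 0.979% of all genes. JAG1, a Notch ligand, had 246.8, 285.2 and 254.0 CPM in sgT33-5 libraries, against 548.3, 566.2 and 442.2 CPM in NT3 libraries (log2 fold change -0.99 ± 0.146, adjusted p = 0.000632). Of 26 Notch genes the coactivator MAML2 was also lower (-0.92 ± 0.218) and the ligand JAG2 higher (0.48 ± 0.113); both lost their calls in 3 of 6 leave-outs. BMPR1B, a BMP receptor and androgen-responsive gene, had 8.39, 8.59 and 13.4 CPM in sgT33-5 libraries, against 23.5, 21.0 and 29.4 CPM in NT3 libraries (-1.28 ± 0.155, adjusted p = 9.19e-06), and BMPR1A stood at -0.26 ± 0.063, a call lost in 4 leave-outs. These 2 receptors were the called members among 29 tested TGF-beta and BMP genes. WNT5A, a Wnt ligand, was the 1 called member of 29 tested Wnt genes, at -0.68 ± 0.089 (adjusted p = 2.73e-05).

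The lowest genes by fold, among called genes with a mean of at least 5 CPM in the higher group and no overlap, were a mixed set. MAGEA4, a cancer-testis antigen, had 1.78, 1.63 and 1.27 CPM in sgT33-5 libraries, against 5.34, 5.14 and 6.91 CPM in NT3 libraries (log2 fold change -1.89 ± 0.226). SALL2, a zinc finger factor, stood at -1.74 ± 0.259, and the secreted glycoprotein FSTL1 at -1.42 ± 0.194. SYT4, a synaptotagmin of vesicle release, had 29.7, 20.5 and 29.3 CPM in sgT33-5 libraries, against 85.6, 57.8 and 81.2 CPM in NT3 libraries (-1.499 ± 0.207, adjusted p = 0.000312). RAB3B, a GTPase of regulated secretion, was lower too (-0.84 ± 0.085), the second called member among 28 synaptic vesicle genes. That list had 7.14% lower, beside 2.06% of all genes. CSGALNACT1, an enzyme of chondroitin sulfate synthesis, stood at -1.24 ± 0.233, the transcription factor RUNX1 at -1.23 ± 0.241, SWAP70, a guanine exchange factor, at -1.12 ± 0.095, the RNA-binding protein MSI1 at -1.08 ± 0.162, the scaffold DLG2 at -1.06 ± 0.122 and the adhesion receptor ADGRL2 at -1.07 ± 0.195. The genes of this paragraph kept their calls in all leave-outs. Their R1881 responses in 42D NT3 cells ran both ways, with log2 fold changes of 3.93 for RUNX1, 1.18 for RAB3B, -0.41 for SYT4 and -0.33 for SALL2.

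Among metabolic and secretory lists the shifts were small. The counts below stand beside 2.06% lower and 0.979% higher over all genes tested. The unfolded protein response and secretory list had 5 of 41 tested members lower and 0 higher, 39 of the 41 were negative, and the median was -0.12. Its lowest called members were PGM3 of hexosamine synthesis (-0.37 ± 0.072), the chaperone-like CRELD2 (-0.32 ± 0.064) and the signal peptidase subunit SEC11C (-0.27 ± 0.064). DNAJB9, an uncalled co-chaperone, stood lower at -0.44 (adjusted p = 0.459, and 8.17e-05 in the blocked fit). The blocked fit called 17 lower. The count was 2 without replicate 1 or 2 of sgT33-5 or replicate 2 of NT3, 3 without replicate 3 of NT3, and 10 without replicate 3 of sgT33-5; SEC11C lost its call in 3 leave-outs. PGM3 overlaps RWDD2A on the opposite strand, and CRELD2 overlaps ALG12. Of 38 transporters, 5 were lower and 1 higher. SLC38A4, an amino acid transporter, had 5.47, 7.71 and 8.30 CPM in sgT33-5 libraries, against 12.02, 16.1 and 15.1 CPM in NT3 libraries (-1.005 ± 0.159, adjusted p = 0.000454). With DMSO it averaged 0.0656 CPM in sgT33-5 and 0.0909 CPM in NT3. STEAP2 was lower and STEAP3 higher (-0.31 ± 0.078 and 0.28 ± 0.077). Of 40 glycosyltransferase genes, 3 were lower, among them DSEL (-0.59 ± 0.056) and CHSY1 (-0.27 ± 0.058), and 2 of the linkage-region enzymes, B3GAT3 and B3GALT6, were higher (0.35 ± 0.085 and 0.25 ± 0.06). CHSY1 and B3GALT6 lost their calls in 3 leave-outs, B3GAT3 in 4, STEAP2 in 3 and STEAP3 in 5. Lipid synthesis had 2 of 38 lower, the elongases ELOVL7 (-0.58 ± 0.083) and ELOVL5 (-0.19 ± 0.049, a call lost in 5 leave-outs).

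Several programmes had few or no calls in the fit without the block. Over all genes tested, 2.06% were lower and 0.979% higher. A single lower gene made 2.38% of the interferon list, 3.57% of the heat shock list and 2.63% of the ATF4 list, near that share. None of 56 cell cycle and replication genes passed the threshold in edgeR or DESeq2 (3 had an unadjusted p under 0.05, 1 was lower in the blocked fit, median 0.01). None of 29 NF-kappaB and AP-1 genes passed in edgeR, while 10 had an unadjusted p under 0.05, DESeq2 called 2 higher and the blocked fit called 4 higher and 1 lower. Of 42 interferon genes, 1 was lower (HERC6, -0.31 ± 0.063). Of 40 hypoxia and glycolysis genes, NDRG1 and the kinase PDK3 (-0.25 ± 0.062) were lower. FKBP5 was the 1 lower gene of 28 heat shock genes, and the lipoprotein receptor VLDLR (-0.44 ± 0.11) the 1 lower gene of 38 ATF4 targets, whose median was 0.09; the blocked fit called 7 of these higher and 1 lower. PDK3 and VLDLR each lost their calls in 4 of 6 leave-outs. Among 31 p53 targets, PLK3 (0.58 ± 0.155) and PHLDA3 (0.35 ± 0.096) were higher and BTG1 lower (-0.53 ± 0.092); BTG1 overlaps BTG1-DT and LINC01619, so its reads may be shared. DOHH, which completes hypusine synthesis, was the 1 higher gene (0.54 ± 0.141) of 19 polyamine genes. PLK3, PHLDA3 and DOHH each lost their calls in 5 of 6 leave-outs.

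The rises were fewer and included the largest folds. KCNH8, a voltage-gated potassium channel, had 10.9, 16.1 and 16.5 CPM in sgT33-5 libraries, against 0.763, 1.52 and 1.59 CPM in NT3 libraries (log2 fold change 3.49 ± 0.275, adjusted p = 2.84e-08). PCDH7, a protocadherin, had 5.85, 6.20 and 5.07 CPM in sgT33-5 libraries, against 0.636, 0.857 and 0.930 CPM in NT3 libraries (2.81 ± 0.279, adjusted p = 3.42e-07). GC, the vitamin D binding protein, rose by 1.99 ± 0.225, the potassium channel KCNJ3 by 1.80 ± 0.29, MB21D2 by 1.19 ± 0.189 and the zinc finger gene ZBTB43 by 0.89 ± 0.101 on the log2 scale. All of these kept their calls in every leave-out. PEG10, a retrotransposon-derived gene linked to neuroendocrine prostate cancer, was the 1 higher gene of 9 tested neuroendocrine markers, at 125.1, 115.9 and 129.4 CPM in sgT33-5 libraries, against 82.7, 69.7 and 85.3 CPM in NT3 libraries (0.64 ± 0.08, adjusted p = 2.01e-05). It overlaps SGCE, and CHGA, INSM1, NEUROD1 and SOX2 were at 0 in all 6 libraries. The neuroendocrine list had 11.1% higher, beside 0.979% of all genes, a share that rests on PEG10 alone. The median log2 fold change of the 9 was -0.03, and 6 of them were negative. DESeq2 and the blocked fit each called 1 member lower. ENO2, named after its values were seen, stood at -0.33 ± 0.106 (adjusted p = 0.0938, and 0.000201 in the blocked fit).

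Several of the strongest rises were neighbours on chromosome 1. Between 19882395 and 20651511, 7 of 11 genes tested were higher: OTUD3, PLA2G2A, VWA5B1, CAMK2N1, the lncRNA ENSG00000289402, MUL1 and PINK1. Called genes set the ends of this run, so its density follows in part from that choice. In a wider window, 19475431 to 20986210, 7 of 18 were higher, beside 0.979% of all genes. OTUD3 (0.32 ± 0.089, adjusted p = 0.0444) did not keep its call in all leave-outs, while the others of the run did. PLA2G2A, a secreted phospholipase, had 83.4, 73.8 and 68.8 CPM in sgT33-5 libraries, against 18.6, 19.4 and 18.3 CPM in NT3 libraries (log2 fold change 2.002 ± 0.072, adjusted p = 2.04e-16). CAMK2N1, an inhibitor of the kinase CaMKII, had 700.2, 741.4 and 674.3 CPM in sgT33-5 libraries, against 193.1, 239.2 and 184.2 CPM in NT3 libraries (1.78 ± 0.099, adjusted p = 2.11e-10). ENSG00000289402, which lies beside CAMK2N1, rose by 3.18 ± 0.281. Further out the changes were smaller, with 0.41 ± 0.06 for the ubiquitin ligase MUL1 and 0.41 ± 0.074 for the kinase PINK1, and neither DDOST on one side (0.02 ± 0.041) nor CAPZB on the other (-0.07 ± 0.051) passed the threshold. OTUD3, VWA5B1, MUL1, PINK1, DDOST and CAPZB were named for their position after their values were seen.

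A second run of rises was the UGT2B cluster on chromosome 4, whose enzymes glucuronidate androgens and other substrates. UGT2B15 had 51.3, 52.6 and 38.5 CPM in sgT33-5 libraries, against 29.5, 31.2 and 21.0 CPM in NT3 libraries, and its groups did not overlap (adjusted p = 0.0416). UGT2B10 and UGT2B11 rose by 0.91 ± 0.224 and 0.89 ± 0.203. UGT2B17, chosen after its values were seen, stood at 147.5, 176.0 and 125.0 CPM in sgT33-5 libraries, against 78.1, 119.7 and 61.2 CPM in NT3 libraries (0.79 ± 0.271, adjusted p = 0.143, and 0.00549 in the blocked fit). The calls of UGT2B15, UGT2B10 and UGT2B11 were lost in 5, 4 and 3 of 6 leave-outs, and paralogs of this cluster may share reads.

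Falls were densest on chromosome 22. Of 381 genes tested there, 41 were lower and 0 higher, so 10.8% were lower against 1.84% of genes on the other chromosomes. Chromosome 18 followed, with 17 of 249 lower and 1 higher and a median of -0.05. The shift was not limited to called genes: 83.5% of the 381 were negative, with a median log2 fold change of -0.17, against -0.01 for genes elsewhere. It ran from the first tested gene to the last, with medians of -0.17, -0.17, -0.16 and -0.16 in 4 successive groups of genes by position. Chromosome 22 took 1.98%, 1.91% and 1.88% of all counts in sgT33-5 libraries, against 2.08%, 2.06% and 2.04% in NT3 libraries, with no overlap. The median stayed between -0.15 and -0.17 whichever library was left out, and the number lower between 16 and 41, with 25 without either of replicates 1 and 2 of sgT33-5, 24 without its replicate 3, 16 without replicate 1 of NT3 and 21 without replicate 2 of NT3. In the fit of the 6 libraries alone 8 of 356 were lower, with a median of -0.16, and in the blocked fit 84 were lower and 1 higher. Tested for a minimum change of 1.2-fold, 1 of 381 was lower (0.263%), against 0.304% elsewhere. Named after their values were seen, AP1B1, a subunit of the AP-1 clathrin adaptor, stood at -0.46 ± 0.059. CRELD2 and 2 of the called androgen response genes lie on this chromosome, so 37 of the 39 androgen response calls came from elsewhere. DNA copy number was not measured, and its part in these values was not tested.

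**Figure D4:**
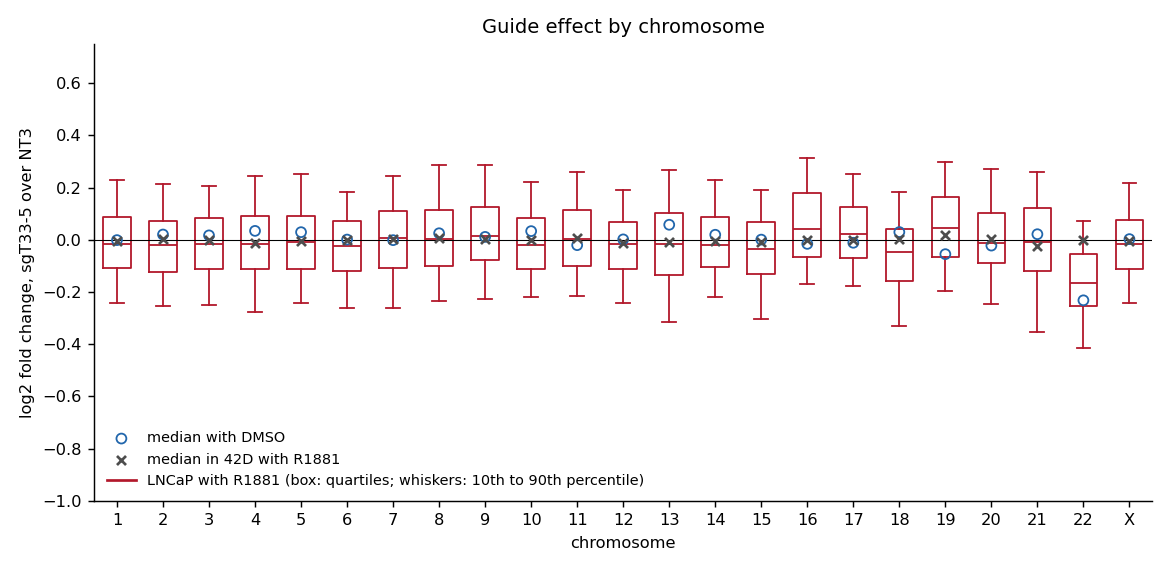
Log2 fold change of sgT33-5 over NT3 for all tested genes by chromosome in LNCaP with R1881 (red boxes with quartiles, whiskers from the 10th to the 90th percentile), with the median in LNCaP with DMSO (blue circles) and in 42D with R1881 (grey crosses). Chromosome 22 has a median of -0.17 with R1881 and -0.23 with DMSO, and near 0 in 42D.

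The 20 tested genes of the mitochondrial chromosome were all negative (median -0.30). None passed the threshold in edgeR or DESeq2 or reached an unadjusted p under 0.05 in edgeR. The library of low mitochondrial share was replicate 1 of sgT33-5. Medians of these genes were also negative elsewhere: -0.54 in LNCaP with DMSO, where replicate 3 of sgT33-5 had a share of 2.14%. With R1881 they were -0.18 in 42D, -0.19 in sgT33-5_MC_C2 and -0.12 in sgT33-5_MC_F2. The part of single libraries was not tested.

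Without hormone the same guide gave fewer calls in the shared LNCaP fit, in the same directions. In fits of the 6 compared libraries alone the order turned. These called 231 of 14511 genes with DMSO and 194 of 14518 with R1881. With DMSO, 217 of 15519 genes (1.4%) differed, 79 higher (0.509%) and 138 lower (0.889%), in libraries separate from the 6 with R1881. Of the 320 genes lower with R1881, 290 were also negative with DMSO, 88 were called lower there and 0 higher, so the shared genes were 27.5% of the R1881 calls and 63.8% of the DMSO calls. Of the 152 higher genes, 134 were positive with DMSO and 40 were called higher (26.3% and 50.6% of the 2 lists). The highest genes differed at similar size in both: PLA2G2A by 1.93 and KCNH8 by 3.43 on the log2 scale with DMSO. KLK3 stood at 495, 487 and 455 CPM in sgT33-5 libraries with DMSO, against 1348, 1400 and 1357 CPM in NT3 libraries with DMSO, a log2 fold change of -1.51 (adjusted p = 0.000439), and IGF1R at -1.64. Chromosome 22 also differed without hormone, with a median of -0.23 and 94.5% of its genes negative.

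For androgen targets the values with and without hormone are set side by side here. The androgen response list had a median of -0.03 with DMSO and 7 lower genes, against -0.23 and 39 with R1881. Over all genes tested, 0.889% were lower with DMSO and 2.06% with R1881. Genes raised 8-fold or more in 42D had a median of -0.24 with DMSO. With DMSO the log2 fold change was 0.09 for FKBP5, -0.12 for NDRG1, -0.01 for GRHL2 and 0.02 for TRIM24, none past the threshold. The difference between the guide effect with R1881 and that with DMSO passed the threshold for 0 of 15519 genes in edgeR and 0 in DESeq2, with 1206 and 1019 genes at an unadjusted p under 0.05. In the blocked fit 22 genes passed, 3 positive and 19 negative. The replicate numbers of the DMSO libraries were not shown to pair them.

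In 42D, 79 of 15403 genes (0.513%) differed with R1881, 61 higher (0.396%) and 18 lower (0.117%), and TRIM33 had 74.9, 74.7 and 73.1 CPM in sgT33-5 libraries, against 102.3, 110.2 and 107.1 CPM in NT3 libraries, a log2 fold change of -0.52 ± 0.051. Of the 320 LNCaP genes called lower, 307 were tested in 42D, and 43.0% of them were negative there, with a median of 0.02. The genes called lower in both lines were 4: TRIM33, SYT4 (-0.82 in 42D), WNT5A (-0.38) and the peroxidasin PXDN (-0.70). Another 7 were called in opposite directions, lower in LNCaP and higher in 42D: MAF, CNTN4, PIK3AP1, MME, PDLIM5, AIDA and RAB4A. The transcription factor MAF had the largest value in 42D of these, at -0.68 ± 0.164 in LNCaP and 0.74 in 42D. The 5 genes higher in both lines were PCDH7 (1.495 in 42D), RAB20 (1.24), ENSG00000287499 (0.69), ZBTB43 (0.44) and PINK1 (0.25). Apart from genes the naming rule gave, these 16 were named as the whole set called in both lines. Among them MAF, CNTN4, PIK3AP1, AIDA, RAB4A, PXDN and ENSG00000287499 did not keep their LNCaP call in all 6 leave-outs. CNTN4 was low in LNCaP, at 1.25 to 1.34 CPM in sgT33-5 and 2.46 to 3.31 CPM in NT3.

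KLK3 differed between the lines. In 42D it had 343, 356 and 403 CPM in sgT33-5 libraries, against 303, 349 and 427 CPM in NT3 libraries, which overlapped. In a joint fit of all 36 libraries, the LNCaP effect minus the 42D effect was -1.44 ± 0.256 for KLK3 and -1.69 ± 0.178 for IGF1R (adjusted p = 0.00211 and 2.18e-07). That difference passed the threshold for 218 of 16564 genes (1.32%), 191 of them negative (1.15%) and 27 positive (0.163%). Of the 101 androgen response genes tested in 42D, 4 were higher and 0 lower, with a median of 0.03. Over all genes tested in 42D, 0.396% were higher and 0.117% lower, so the share higher in this list was above that of all genes. Genes of chromosome 22 had a median of -0.002 in 42D.

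**Figure D5:**
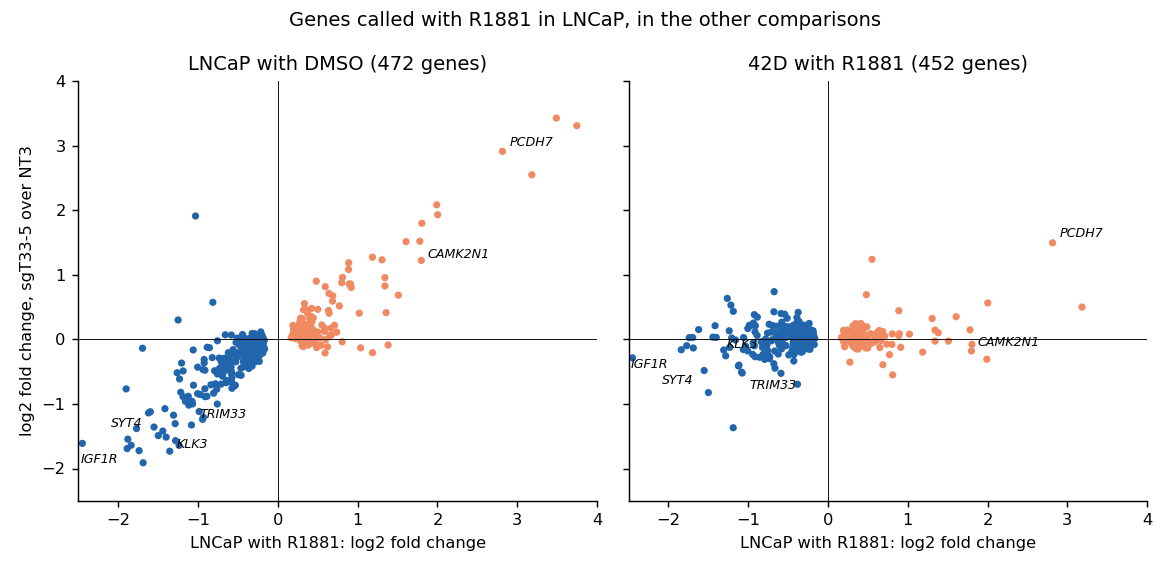
Genes called in LNCaP with R1881 (x axis, log2 fold change of sgT33-5 over NT3; blue lower, orange higher) against the same fold change in LNCaP with DMSO (left, 472 genes) and in 42D with R1881 (right, 452 genes). Most points keep their side of 0 with DMSO (290 of 320 lower genes, 134 of 152 higher genes), while in 42D 132 of 307 lower genes stay negative.

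LNCaP was also sampled as sgT33-5_MC_C2 and sgT33-5_MC_F2, whose comparisons share the same 3 NT3 libraries and so are only set side by side. Log2 fold changes with R1881 for KLK3 were -1.40 in sgT33-5, -3.81 in C2 and -2.41 in F2, and for IGF1R -1.84, -3.98 and -1.85 in that order. TRIM33 stood at -1.07, -1.57 and -1.12. Some of the highest genes of sgT33-5 did not keep their direction, as GC at 1.99, -1.98 and -7.43, and KCNH8 at 3.49, 3.63 and -2.67. CAMK2N1 stood at 1.78, 1.79 and 1.85 and PLA2G2A at 2.002, 2.23 and 1.79. KLK2 was at 0.26, -0.54 and 1.07. The median of chromosome 22 was -0.17, -0.19 and -0.21.

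Of the RNA classes, 3.60% of 12465 protein-coding genes and 0.918% of 2288 lncRNA genes were called. The lncRNAs leaned upward, with 15 higher and 6 lower, against 136 higher and 313 lower protein-coding genes. Chosen after their values were seen, the prostate cancer lncRNA SCHLAP1 had 24.3, 24.4 and 25.6 CPM in sgT33-5 libraries, against 32.4, 31.3 and 33.2 CPM in NT3 libraries (-0.38 ± 0.082, adjusted p = 0.00863). PCAT1, another prostate lncRNA, had 6.10, 6.45 and 8.05 CPM in sgT33-5 libraries, against 2.80, 4.88 and 5.18 CPM in NT3 libraries (0.68 ± 0.186, adjusted p = 0.0411). SCHLAP1 kept its call in every leave-out and PCAT1 did not.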

How the data were processed

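RNA-seq read counts per gene of 36 libraries (12 groups of 3) were deposited by the authors as whole numbers, not normalized. Per the submitters' processing notes, reads were trimmed with cutadapt and aligned with HISAT2 2.1.0; the counting tool and its strand setting are not given in the sources used here. The table held 61805 genes and 1 blank row with 0 counts, and 0 sample columns were left unmapped. The 24 LNCaP libraries were fitted together, the 12 of 42D in another fit and all 36 jointly, with edgeR 4.0.16 (TMM, filterByExpr, robust quasi-likelihood F test) in R 4.3.3; p-values were Benjamini-Hochberg adjusted over all tested genes at 0.05. SE is the size of the log2 fold change over the root of F. DESeq2 1.42.0 and the fits of the closing section were alternatives, and the fit was tested on simulated data. Same-numbered sgT33-5 and NT3 libraries with R1881 deviated together (correlations 0.136, 0.18 and 0.265), so blocked values are given; with DMSO these were 0.0582, 0.165 and 0.18. Named genes were a panel, the 12 highest and 15 lowest called genes without overlap and with at least 5 CPM in the higher group, and up to 3 called genes per list and direction. The comparison, panel and lists were chosen with earlier results of these data known. Some genes these rules name are not reported here.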

Additional observations from a re-analysis of the deposited data

Results flagged for a closer look

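For 32 of the 86 genes given by the naming rule, the guide effect with R1881 differed between LNCaP and 42D in the joint edgeR fit of 36 libraries (adjusted p under 0.05). Each value is the log2 fold change of sgT33-5 over NT3 in LNCaP minus that in 42D.

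Of the 32 named genes, 25 were negative and 7 positive. The difference was -2.172 for ADGRL2, which was too low in 42D to be tested there alone, and -1.779 for SALL2. It was -1.69 for IGF1R, -1.639 for FSTL1 and -1.443 for KLK3. CSGALNACT1 stood at -1.381, NDRG1 at -1.242, RUNX1 at -1.121, TRPM8 at -1.098 and BMPR1B at -1.04. DLG2 had -0.9159, TRIM33 itself -0.5662, FKBP5 -0.4913 and TRIM24 -0.4595. MAML2 stood at -1.319, JAG1 at -1.217, DSEL at -1.002, ELOVL7 at -0.8596 and RAB3B at -0.8153. BTG1 had -0.743, LRRN1 -0.7379, FN1 -0.7054, ALCAM -0.5887, GRHL2 -0.4422 and ELOVL5 -0.3368. The positive ones were 0.6153 for PEG10 and 1.068 for CDH26, with 1.426 for PLA2G2A, 1.619 for CAMK2N1, 1.869 for KCNJ3, 2.285 for GC and 2.668 for ENSG00000289402. The transcript of TRIM33 fell less in 42D, by 0.52 against 1.07 on the log2 scale in LNCaP, and the part of that in the other differences was not tested.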

How the results depend on the processing

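The 472 calls with R1881 (152 higher, 320 lower) became 743 with no filter on low counts (360 higher), 194 in the fit of the 6 libraries alone (79 higher, 115 lower), 1264 with the replicate block (452 higher, 812 lower), 63 for a minimum change of 1.2-fold (16 higher, 47 lower) and 188 after leaving out both libraries whose mitochondrial share was low (48 higher, 140 lower), the last chosen after seeing the data. Leaving out 1 library gave 198 to 497 calls, 50 to 143 higher and 147 to 354 lower. The 217 calls with DMSO became 391 unfiltered, 774 blocked, 46 for 1.2-fold, 128 with those 2 left out, and 106 to 170 with 1 library left out. They became 231 in a fit of the 6 compared DMSO libraries alone. The difference between R1881 and DMSO, with 0 calls, gave 26 unfiltered and 22 blocked. The 79 calls in 42D became 222 unfiltered, 331 blocked and 43 to 74 with 1 library left out. The difference between LNCaP and 42D, 218 calls, became 365 unfiltered, 140 with the compared libraries alone, 543 blocked, 49 for 1.2-fold and 135 to 246 with 1 library left out. RLE size factors gave 469 calls with R1881 and DESeq2 598. Of 75 named calls, 39 held in all 6 leave-outs. Log2 fold changes near 0 turned their sign with 1 library left out, over -0.0757 to 0.0407 for FOXA1, -0.000851 to 0.0523 for RNF40, -0.0308 to 0.112 for SKP2 (also -0.0112) and -0.102 to 0.014 for USP22. The cause was not tested.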
